A study of Mus musculus with 18 samples.

Results

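The sensory transduction channel genes described here are 10 genes chosen by name, Trpv1, Trpv2, Trpa1, Trpm3, Trpm8, Piezo1, Piezo2, Asic1, Asic3 and P2rx3, of 47643 genes counted in each library. Of the 10, 9 passed a filter of over 1 CPM, the count scaled to a fixed library size, in at least 3 libraries, as did 13771 genes in all, and Trpa1 did not. RNA was sequenced from 18 spot cultures of dorsal root ganglion (DRG) neurons, the sensory neurons whose axons run in peripheral nerves, taken from CD-1 mouse embryos at e13.5 and grown with FDU, an inhibitor of cell division that depletes the cells that are not neurons. Control cultures were left uninjured and collected at 7 days in vitro (DIV7), and the other groups had their axons cut with a blade and were harvested after 1 hour, 3 hours, 8 hours, 16 hours or 24 hours (hours post injury, HPI), with 3 replicates in each of the 6 groups. All groups shared the strain, the embryonic age and FDU, and none carried an altered gene. The sample labels give DIV7 as the collection day of the injured cultures too, whereas the methods give it as the day of the cut. If the methods hold, the injured cultures were older than the control by the time since the cut, and time after injury and added time in culture cannot be told apart. The sources used here do not say whether the 3 replicates came from separate litters or dissections. The p-values measure the spread between these samples that is left after the replicate number is fitted, and that spread may be technical.

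These genes encode the ion channels that turn a physical or chemical stimulus at a sensory nerve ending into an electrical signal. The transient receptor potential (TRP) channels respond to heat, cold and plant compounds such as capsaicin and menthol, the Piezo channels open when the membrane is stretched or indented, the acid-sensing channels (ASICs) open when protons accumulate outside the cell, and P2X3 receptors open when ATP is released from damaged or distended tissue. In the DRG, subtypes of sensory neuron carry different sets of these channels, which is how a touch neuron, a cold neuron and a pain neuron differ in what they report.

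Counts on genes ranged from 9478891 to 23082327 over the 18 libraries. The summed level of 9 sensory neuron markers, Tubb3 and Avil among them, lay between 9131 and 10963 CPM per library, against at most 15.3 CPM for 8 glial markers, 19.6 CPM for 6 fibroblast markers, 2.01 CPM for 5 endothelial markers and 8.60 CPM for 6 myeloid markers. None of these markers was at 0 in every library. The summed neuronal markers lay between 10360 and 10656 CPM in the control libraries and between 9131 and 10064 CPM at 16 HPI, so these groups did not overlap. Of 9 neuronal markers, Tubb3 (log2 fold change -0.40, adjusted p = 1.1e-05, edgeR) and Elavl4 (-0.41, adjusted p = 6.5e-05) were lower at 16 HPI, and at 24 HPI Tubb3 was still lower while Elavl4 was higher. Dcn, 1 of 4 fibroblast genes tested, had 0.570 ± 0.310 CPM in the control libraries (SD, n = 3). It alone of the 4 was called higher at 16 HPI, by 2.07 on the log2 scale (adjusted p = 1.8e-05). Of 3 myeloid genes tested, Cd68 alone was called higher, by 0.97 (adjusted p = 0.00698), beside 10.7% of all genes higher and 11.5% lower at 16 HPI. The part of these movements in the results below was not tested. In bulk RNA, fewer neurons of a subtype and less RNA per neuron cannot be told apart.

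In the control cultures the channel genes spanned a wide range of levels. Levels are given as normalised CPM, that is counts divided by the library's counts on genes and by its normalization factor, and, to compare genes with one another, as RPKM, the same value per kilobase of exon. P2rx3, the subunit of the ATP-gated receptor of pain neurons, stood first with 141.9 ± 50.3 RPKM (SD, n = 3), followed by the touch channel gene Piezo2 with 60.2 ± 1.47 RPKM and the acid-sensing channel gene Asic3 with 35.4 ± 3.54 RPKM. The 3 libraries of each of these genes did not overlap with those of the next. Asic1 had 12.9 ± 3.42 RPKM, Trpm8 8.81 ± 1.25 RPKM and Trpv2 8.37 ± 0.487 RPKM. The last pair did not differ beyond their spread. Trpm3 had 2.45 ± 0.284 RPKM, Piezo1 0.941 ± 0.460 RPKM and the capsaicin receptor gene Trpv1 0.551 ± 0.644 RPKM. Piezo1 and Trpv1 overlapped. Trpa1, the receptor for mustard oil and other irritants, was lowest with 0.0332 ± 0.0231 RPKM. By CPM, without the length, Piezo2 stood above P2rx3, and Trpm3, whose annotated exons sum to 24437 bases, moved from rank 7 to rank 5.

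**Figure D1:**
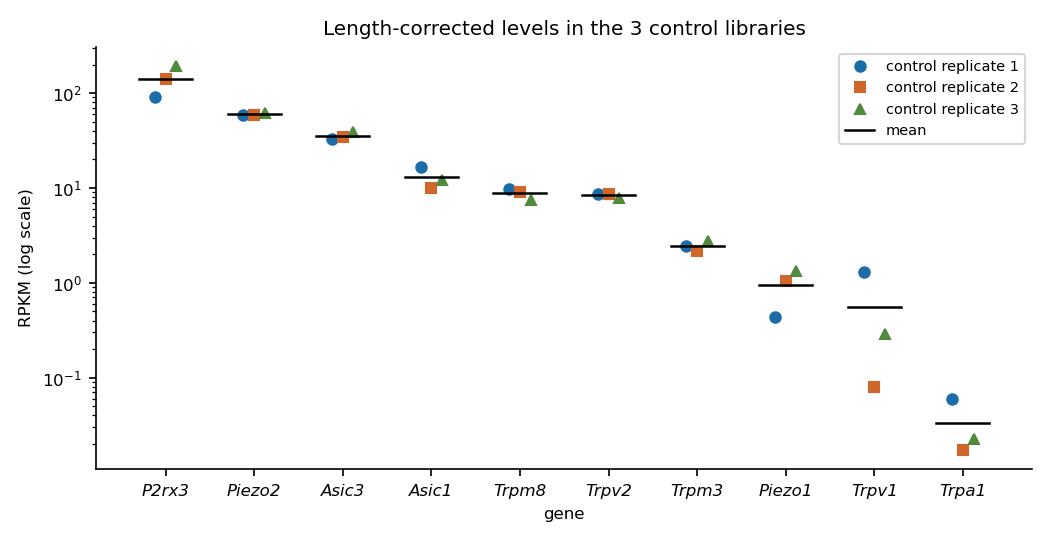
Length-corrected levels (RPKM, log scale) of the 10 channel genes in the 3 control libraries, each symbol a library and each bar the mean. The genes fall from P2rx3 at 141.9 RPKM to Trpa1 at 0.0332 RPKM, and the 3 libraries lie far apart for Trpv1, Piezo1 and P2rx3.

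Over the time course, 6 of the 9 genes tested varied, namely Trpm3, Trpm8, Piezo1, Piezo2, Asic1 and Asic3 (edgeR's quasi-likelihood test of all time points together, adjusted p under 0.05). Of all genes tested, 30.0% did so. Asic3 and Trpm3 were called lower at 1, 8, 16 and 24 HPI but not at 3 HPI, and Piezo2 at 8, 16 and 24 HPI. Trpm8 and Asic1 were called lower at 16 and 24 HPI, and Trpv1 at 16 HPI alone. DESeq2 also called Piezo2 and Trpm8 lower at 1 HPI, and Asic3 and Trpm3 at 3 HPI. Piezo1 was the only channel gene of the 10 that was higher in any comparison with control, and it was so at 16 HPI. P2rx3 and Trpv2 passed in no comparison. All fitted changes were moderate, with values between 0.581 and 1.46 of control, so none of them reached 2-fold. The 95% intervals of Trpv1 and Trpm8 at 16 HPI, which went down to -1.19 and -1.01 on the log2 scale, included a 2-fold fall.

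At 1 HPI, 2 of 9 genes were lower and 0 were higher, beside 0.182% of all genes lower and 0.0944% higher. By the p-value of this comparison Asic3 stood second and Trpm3 eighth among the 13771 genes tested. At 3 HPI edgeR called 0 of 9, beside 0.145% of all genes lower and 0.0436% higher, while 4 had an unadjusted p under 0.05, all of them lower, and DESeq2 called 2, Asic3 and Trpm3. At 8 HPI, 3 of 9 were lower and 0 higher, beside 3.9% and 3.78% of all genes. At 16 HPI, 6 were lower and 1 higher, beside 11.5% and 10.7%. At 24 HPI, 5 were lower and 0 higher, beside 9.03% and 5.99%. Where 0 genes were called higher by edgeR, DESeq2 also called 0 higher, and the unadjusted p was under 0.05 for 0 of the genes above control at 1 and 3 HPI and for 1, Trpv2, at 8 and 24 HPI. The median log2 fold change of the 9 genes was -0.18, -0.07, -0.00, -0.38 and -0.43 at 1, 3, 8, 16 and 24 HPI, and that of all genes stayed within 0.01 of 0. All 5 comparisons share the same 3 control libraries. Without a term for the replicate number, 0, 0, 1, 3 and 3 of the genes passed at these times, the 3 at 16 and at 24 HPI being Trpm3, Piezo2 and Asic3.

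**Figure D2:**
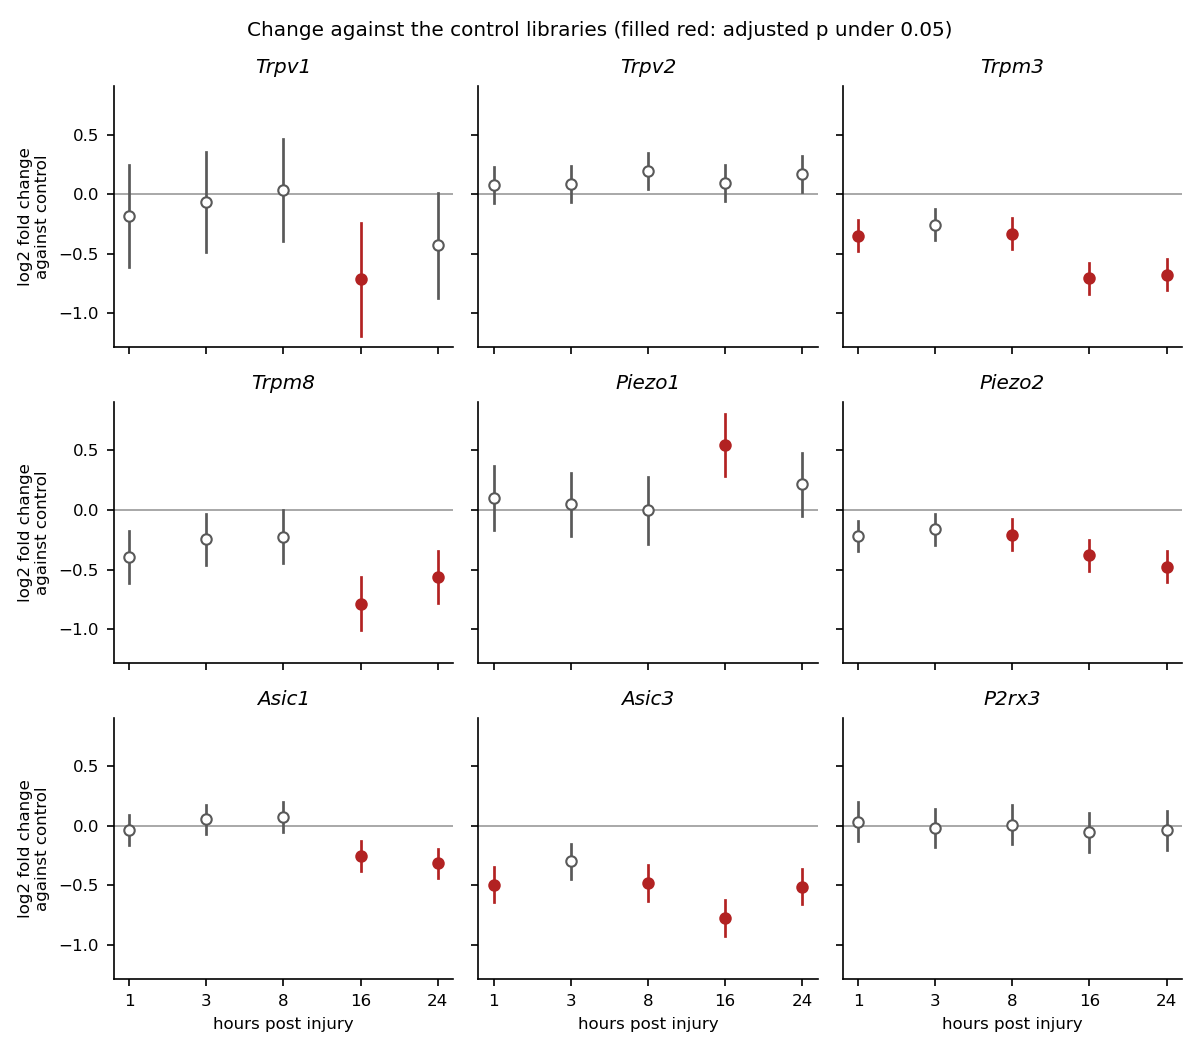
Log2 fold change against control with its 95% interval (y axis) at each time after injury (x axis, hours) for the 9 genes tested, filled red where the adjusted p of edgeR's test was under 0.05. Asic3 and Trpm3 lie below 0 at every time, Piezo1 rises above 0 at 16 HPI with 0.55, and P2rx3 and Trpv2 have no filled point.

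**Figure D3:**
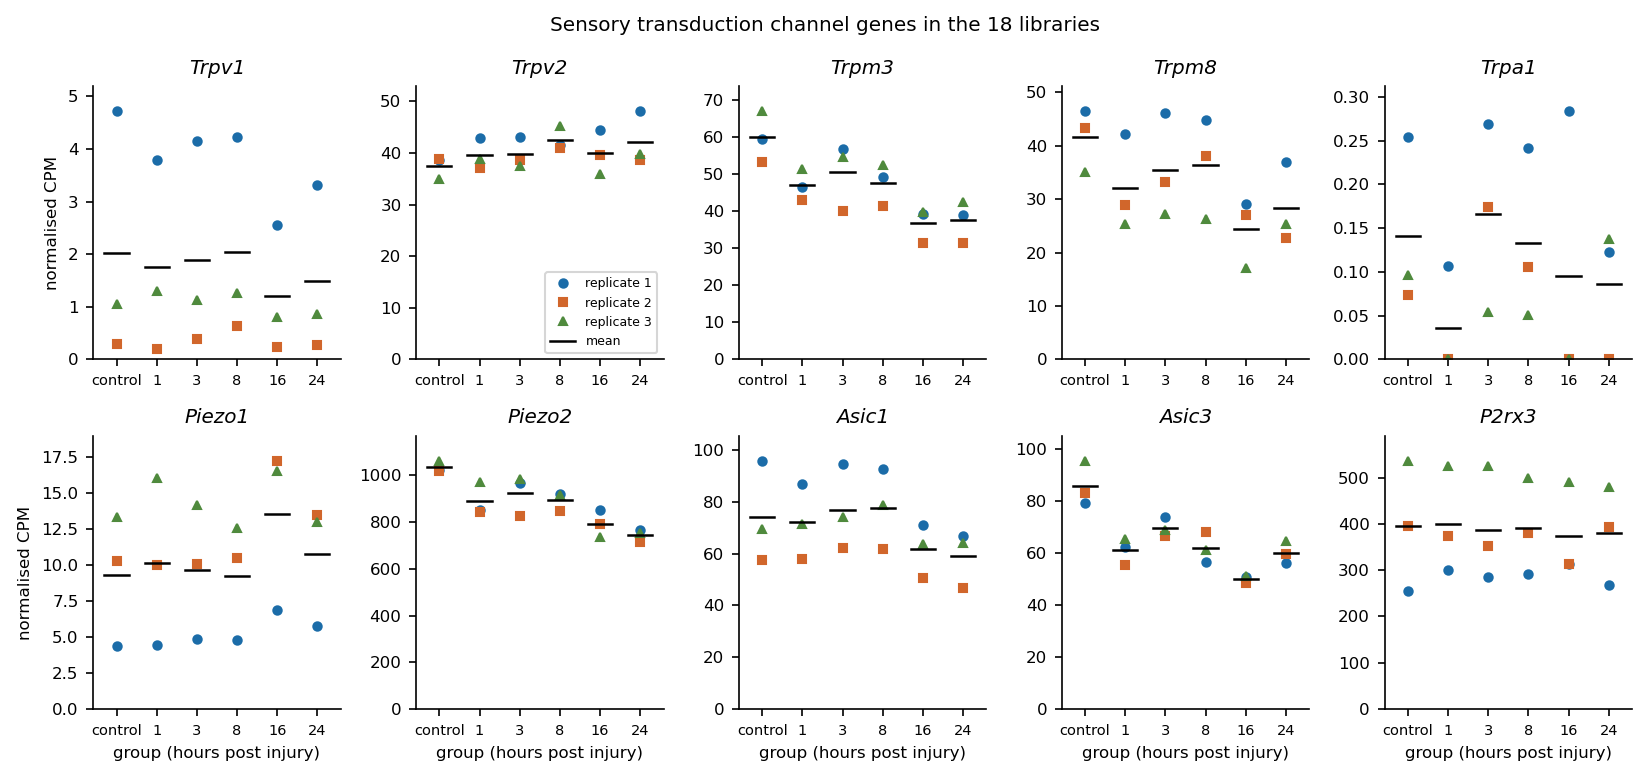
Normalised CPM (y axis, from 0) of each channel gene in all 18 libraries by group (x axis, control or hours post injury), with symbols for replicate numbers and bars for group means. Asic3 and Piezo2 have all control libraries above all injured ones, while for Trpv1, P2rx3 and Piezo1 the replicate numbers lie further apart than the groups.

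Trpv1 (ENSMUSG00000005952.15, chromosome 11 from 73234292 to 73261242 on GRCm38), the receptor for capsaicin and noxious heat, was scarce and lay mostly in replicate 1. The control libraries held 93, 4 and 22 of its counts in replicates 1, 2 and 3, or 4.73, 0.295 and 1.06 CPM. At 16 HPI they were 36, 4 and 15 counts, or 2.56, 0.226 and 0.810 CPM. Each replicate number was lower at 16 HPI than in its control, by -0.89, -0.38 and -0.39 on the log2 scale. Replicate 2 had 4 counts in both groups, so its difference came from the scaling to library size alone. The groups overlapped widely, with or without replicate 1, since the replicate numbers lay further apart than the groups. The fitted log2 fold change at 16 HPI was -0.71 (95% interval -1.19 to -0.24, adjusted p = 0.0273). Without control replicate 1 the value was -0.42 with an adjusted p of 0.448, without 16 HPI replicate 1 it was -0.60 with an adjusted p of 0.242, and DESeq2 gave an adjusted p of 0.200. At 24 HPI it was -0.43 (adjusted p = 0.188). The gene was over 1 CPM in 10 of 18 libraries, so its test rested mainly on those of replicates 1 and 3.

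Trpv2 (ENSMUSG00000018507.16, chromosome 11 from 62574486 to 62600515), a relative of the capsaicin receptor found in large sensory neurons, passed at no time. It had 38.7, 38.9 and 35.0 CPM in the control libraries, 44.4, 39.6 and 36.0 CPM at 16 HPI, and 48.2, 38.6 and 39.8 CPM at 24 HPI. The control libraries lay at the low end of the range and overlapped with every injured group except 8 HPI, which had 41.5, 41.0 and 45.2 CPM. The difference at 8 HPI was 0.19 (95% interval 0.04 to 0.35, adjusted p = 0.121), and without 8 HPI replicate 1 it was 0.28 with an adjusted p of 0.0434. The adjusted p-values of the other 4 times lay between 0.123 and 0.690 in edgeR's test.

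Trpa1 (ENSMUSG00000032769.4, chromosome 1 from 14872648 to 14918862) was at the limit of detection. It had 35 counts in all 18 libraries together, between 0 and 5 in each, and 0 in 5 of them. The limit that a count of 0 allows, 3 counts, came to between 0.13 and 0.316 CPM, and it covers counting error only. The 3 control libraries held 5, 1 and 2 counts and the 16 HPI libraries 4, 0 and 0. A difference between groups was not detectable at this depth, and with a lower filter, at least 10 counts over all libraries, the adjusted p-values against control lay between 0.626 and 0.964.

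Trpm3 (ENSMUSG00000052387.15, chromosome 19 from 22139046 to 22995410), a channel opened by heat and by the steroid pregnenolone sulfate, was lower from the first hour. It had 59.5, 53.2 and 67.1 CPM in the control libraries and 46.5, 43.1 and 51.3 CPM at 1 HPI, and these groups did not overlap. At 3 HPI it had 56.8, 40.1 and 54.5 CPM, and at 8 HPI 49.2, 41.3 and 52.4 CPM. The values then fell further, to 39.2, 31.4 and 39.8 CPM at 16 HPI and 39.1, 31.3 and 42.5 CPM at 24 HPI, below all libraries of the control. Against control, Trpm3 stood at -0.35 ± 0.06 (log2, SE) at 1 HPI (adjusted p = 0.0214), -0.25 at 3 HPI (adjusted p = 0.0837) and -0.33 at 8 HPI (adjusted p = 0.00246). It reached -0.71 at 16 HPI (95% interval -0.84 to -0.57, adjusted p = 1.8e-07) and -0.67 at 24 HPI (adjusted p = 7.9e-07), and all 3 replicate numbers were lower at each of the 5 times. The call at 1 HPI was lost without control replicate 2 (adjusted p = 0.170), control replicate 3 (0.0809) or 1 HPI replicate 1 (0.153). The gene's exons overlap those of 2 RNA genes on the opposite strand, Gm27151 and C330002G04Rik. As the counting is not stated to use strand, reads on the shared bases may have been left out or counted for either gene.

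The stretch before the Trpm3 start is shown because this gene fell as early as Asic3 and to the lowest share of control at 24 HPI. The set of RefSeq promoters used here covered 7 of the 10 genes on GRCm38.p6, which does not mean that RefSeq lacks the others. The 250 bases before the start of Trpm3, chr19:22138796-22139045 on the plus strand, read as follows.
Trpm3: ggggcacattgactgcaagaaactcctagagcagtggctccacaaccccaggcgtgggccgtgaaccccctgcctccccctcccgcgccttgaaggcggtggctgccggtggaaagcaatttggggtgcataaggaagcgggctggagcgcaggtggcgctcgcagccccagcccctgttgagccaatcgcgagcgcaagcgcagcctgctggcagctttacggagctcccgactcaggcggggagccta
It is 66.4% G or C, against a median of 52.4% over 32851 promoters. A search of both strands for 6 motifs found none here: the AP-1 site TGANTCA, held by 6.75% of all promoters in windows of this length, the CRE TGACGTCA (1.55%), the RUNX core TGTGGT (14.0%), the left part of the REST element TTCAGCACC (0.301%), the GC box GGGCGG (32.7%) and the TATA box TATAAA (12.4%). A match or its absence describes these letters only.

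Trpm8 (ENSMUSG00000036251.16, chromosome 1 from 88277661 to 88389293), the receptor for menthol and cool temperatures, was called lower at 16 and 24 HPI, and its value at 16 HPI was the lowest of the 9 genes tested, although within the interval of that of Asic3. It had 46.6, 43.4 and 35.1 CPM in the control libraries, and 29.1, 27.1 and 17.0 CPM at 16 HPI. Every 16 HPI library lay under every control library. At 24 HPI the values were 37.0, 22.8 and 25.4 CPM, which overlapped with control only through replicate 1. Its change on the log2 scale was -0.78 at 16 HPI (95% interval -1.01 to -0.56, adjusted p = 2.3e-05) and -0.57 at 24 HPI (adjusted p = 0.000955), and all 3 replicate numbers were lower at each of the 5 times. Earlier, at 1, 3 and 8 HPI, it was -0.39, -0.25 and -0.22 with adjusted p-values of 0.106, 0.273 and 0.219, and DESeq2 called the first of these (adjusted p = 0.0174). The exons of Trpm8 overlap those of 4930453O03Rik, an antisense RNA gene, and reads on the shared bases may likewise have been left out or counted for either gene.

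The bases before the RefSeq start of Trpm8, chr1:88306485-88306661 on the plus strand, are shown as those of the gene with the lowest value at 16 HPI, without the bases next to the start that GENCODE counts as exon. That RefSeq start, at 88306735, lies inside the gene as GENCODE gives it, which begins at 88277661. By GENCODE the stretch is therefore inside the gene between exons, and not the bases before its start.
Trpm8: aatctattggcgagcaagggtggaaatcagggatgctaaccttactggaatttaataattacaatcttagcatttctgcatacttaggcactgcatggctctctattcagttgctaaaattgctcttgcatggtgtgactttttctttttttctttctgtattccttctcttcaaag
These 177 bases are 37.3% G or C and hold none of the 6 motifs. A TATAAA begins at position -30 from the start, in the stretch not shown.

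Piezo2 (ENSMUSG00000041482.16, chromosome 18), the main channel of gentle touch and body position sense, was the most counted of the 10 genes. The control libraries stood close together at 1021, 1017 and 1063 CPM. At 1 HPI the values were 851, 845 and 971 CPM, at 16 HPI 852, 790 and 738 CPM, and at 24 HPI 765, 716 and 752 CPM. None of the 15 injured libraries reached the lowest control library. Piezo2 differed from control by -0.22 on the log2 scale at 1 HPI (adjusted p = 0.138, 0.0190 by DESeq2 and 0.00322 in edgeR with the compared groups alone), by -0.16 at 3 HPI (adjusted p = 0.235) and by -0.21 at 8 HPI (adjusted p = 0.0422), and the call at 8 HPI was lost whichever of its 6 libraries was left out, with adjusted p-values between 0.0611 and 0.152. It was -0.38 at 16 HPI (adjusted p = 0.000127) and -0.47 at 24 HPI (95% interval -0.60 to -0.35, adjusted p = 3.0e-05), and these calls held under every alternative tried.

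Piezo1 (ENSMUSG00000014444.16, chromosome 8 from 122481698 to 122551329), the stretch channel better known from blood vessels and red cells, rose. It had 4.37, 10.3 and 13.3 CPM in the control libraries and 6.89, 17.3 and 16.5 CPM at 16 HPI. The groups overlapped because replicate 1 was low throughout, but each replicate number was higher at 16 HPI than in its control, by 0.66, 0.74 and 0.31 on the log2 scale. The fitted change was 0.55 (log2, 95% interval 0.29 to 0.81, adjusted p = 0.00282). At 24 HPI the values were 5.76, 13.5 and 13.0 CPM, with a log2 fold change of 0.21 (adjusted p = 0.275), and at 1, 3 and 8 HPI the fitted values lay between -0.00 and 0.10. Exons of Piezo1 overlap those of Ctu2, a tRNA-modifying enzyme gene on the opposite strand, which moved the other way at 16 HPI by -0.21 (adjusted p = 0.0605). Of the markers of other cells at 16 HPI, 1 of 4 fibroblast genes tested, Dcn, and 1 of 3 myeloid genes tested, Cd68, were called higher. Of the 4 glial and 2 red cell genes tested, 0 were called higher, and 0 of any of these markers were called lower. Of all genes, 10.7% were higher and 11.5% lower at this time. No endothelial marker passed the filter. The part of these cells in the rise of Piezo1 was not tested. The 6 fibroblast markers summed to between 4.53 and 14.7 CPM at 16 HPI and between 2.58 and 9.68 CPM in the control libraries. The 8 glial markers summed to between 2.43 and 8.10 CPM at 16 HPI and between 1.99 and 9.39 CPM in the control libraries. For the 6 myeloid markers these ranges were 6.54 to 7.08 CPM and 4.72 to 7.06 CPM. The 6 red cell markers summed to between 2.70 and 6.32 CPM at 16 HPI and between 3.05 and 6.89 CPM in the control libraries, with Hba-a2 and Hbb-bt at no more than 3 counts in any library, and the 5 endothelial markers summed to between 1.08 and 1.63 CPM at 16 HPI and between 1.55 and 1.73 CPM in the control libraries.

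The promoter of Piezo1 is shown as that of the gene that rose, chr8:122551330-122551579, read on the minus strand, with a GC box GGGCGG and a TATA box TATAAA in capitals.
Piezo1: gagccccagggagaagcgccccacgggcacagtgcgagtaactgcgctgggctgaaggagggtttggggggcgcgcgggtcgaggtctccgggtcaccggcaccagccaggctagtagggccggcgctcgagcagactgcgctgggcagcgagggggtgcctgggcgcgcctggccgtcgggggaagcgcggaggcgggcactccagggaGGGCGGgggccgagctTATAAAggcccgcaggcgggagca
The GC box begins at position -40 and the TATA box at position -24 from the start, and 74.0% of the bases are G or C. No AP-1, CRE, RUNX or REST letters were found in this window.

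Asic3 (ENSMUSG00000038276.12, chromosome 5 from 24413392 to 24417835), the acid-sensing subunit of muscle and joint pain neurons, had the lowest value of the 9 genes at 1 HPI and stayed below control at every time. The control libraries had 78.9, 82.9 and 95.3 CPM. At 1 HPI they had 62.1, 55.1 and 65.4 CPM, at 3 HPI 73.5, 66.6 and 68.6 CPM, and at 8 HPI 56.5, 67.8 and 61.1 CPM. No injured library reached the lowest control library. The lowest group was 16 HPI with 50.7, 48.5 and 51.1 CPM, and the level was higher again at 24 HPI with 55.9, 59.7 and 64.4 CPM. The difference on the log2 scale was -0.49 ± 0.07 (SE) at 1 HPI (95% interval -0.64 to -0.35, adjusted p = 0.00416) and -0.30 at 3 HPI (adjusted p = 0.0788). The difference reached -0.48 at 8 HPI (adjusted p = 0.000313), -0.77 at 16 HPI (adjusted p = 2.7e-07) and, smaller again, -0.51 at 24 HPI (adjusted p = 5.5e-05), with all 3 replicate numbers lower at each time. The call at 1 HPI was lost without 1 HPI replicate 2 (adjusted p = 0.0670), and at 3 HPI a call appeared without 3 HPI replicate 1 (adjusted p = 0.0271).

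The bases before the RefSeq start of Asic3, chr5:24413201-24413391 on the plus strand, are shown because the gene moved at 1 HPI, with the RUNX core TGTGGT in capitals and without the bases that GENCODE counts as exon.
Asic3: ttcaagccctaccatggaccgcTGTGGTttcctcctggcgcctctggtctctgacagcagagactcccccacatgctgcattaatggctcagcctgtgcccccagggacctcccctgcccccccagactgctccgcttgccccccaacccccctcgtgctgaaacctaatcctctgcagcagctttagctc
The RUNX letters begin at position -228 from the start. The same letters begin at position -50 from the start of Trpv1, and on the other strand at position -166 from a second, downstream start of Trpm3. No window of the 7 genes held the AP-1, CRE or REST letters.

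Asic1 (ENSMUSG00000023017.9, chromosome 15 from 99670368 to 99701130), the more widespread neuronal acid sensor, passed at 16 and 24 HPI and not before. It had 95.8, 57.4 and 69.6 CPM in the control libraries and 92.8, 61.7 and 78.6 CPM at 8 HPI. The values were then lower, with 71.1, 50.7 and 63.6 CPM at 16 HPI and 66.9, 46.6 and 64.0 CPM at 24 HPI. Groups overlapped at all times, since the replicate numbers differed from each other by more than the groups did. Early differences were -0.04, 0.06 and 0.07 on the log2 scale at 1, 3 and 8 HPI (adjusted p between 0.531 and 0.842), and later ones were -0.25 at 16 HPI (adjusted p = 0.00389) and -0.32 at 24 HPI (95% interval -0.44 to -0.19, adjusted p = 0.0011). Without control replicate 1, which had the highest control value, the value at 16 HPI was -0.17 with an adjusted p of 0.0662.

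P2rx3 (ENSMUSG00000027071.14, chromosome 2 from 84998583 to 85037462) showed no difference beyond its spread. It had 256, 395 and 536 CPM in the control libraries, 314, 313 and 491 CPM at 16 HPI, and 268, 392 and 479 CPM at 24 HPI. Replicate 1 was higher and replicates 2 and 3 lower at 16 HPI than in their controls. The log2 fold change was -0.05 at 16 HPI with a 95% interval of -0.22 to 0.11, and -0.04 at 24 HPI (95% interval -0.20 to 0.13), with adjusted p-values between 0.684 and 0.974 over the 5 times. The exons of P2rx3 overlap those of Ssrp1, a chromatin gene on the opposite strand, which passed in no comparison with control.

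The steps between neighbouring times compare injured groups with each other, although the control libraries were part of the fit that gave the spread. Steps were tested from 3 to 8, 8 to 16 and 16 to 24 HPI, and most of their calls fell between 8 and 16 HPI. The step from 1 to 3 HPI was not tested. From 3 to 8 HPI edgeR called 0 of 9, beside 0.559% of all genes lower and 1.74% higher. Asic3 alone had an unadjusted p under 0.05 in that step, and DESeq2 called 0. From 8 to 16 HPI, 5 were lower and 1 higher, beside 7.88% and 7.3% of all genes. Trpm8 fell by 0.56 on the log2 scale (adjusted p = 0.00171), Trpm3 by 0.37 (adjusted p = 0.000577) and Asic1 by 0.32 (adjusted p = 0.00099), and Piezo1 rose by 0.55 (adjusted p = 0.006). Each of these was in the same direction in 3 of 3 replicate numbers. Asic3 fell by 0.29 (adjusted p = 0.0103) and Trpv1 by 0.75 (adjusted p = 0.0321). DESeq2 also called 6 genes in this step, but with Piezo2 in place of Trpv1. In edgeR Piezo2 had -0.17 (unadjusted p = 0.0111, adjusted p = 0.0645). From 16 to 24 HPI 0 were lower and 1 higher, beside 6.22% and 3.59% of all genes, and that gene was Asic3, which rose by 0.26 (adjusted p = 0.0257) with no overlap between the groups. Piezo1 had -0.33 in this step (unadjusted p = 0.0117, adjusted p = 0.0879), and DESeq2 called Asic3 alone.

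Several channel genes differed more between replicate numbers, which the model carried as a batch, than between groups. Trpv1 averaged 3.79 CPM over the 6 libraries of replicate 1, 0.338 CPM over those of replicate 2 and 1.07 CPM over those of replicate 3, a ratio of 11.2 between the highest and the lowest. Piezo1 ran in the other direction, with 5.19, 11.9 and 14.3 CPM. P2rx3 had 286, 368 and 509 CPM. Replicate 1 was therefore high in Trpv1 and low in Piezo1 and P2rx3. Asic1 (84.7, 56.1 and 70.2 CPM) and Trpm8 (41.0, 32.2 and 26.1 CPM) differed less, and Asic3 and Piezo2 differed by ratios of 1.07 and 1.08. Calca, the neuropeptide gene of peptidergic pain neurons, had 490, 126 and 143 CPM, and the general sensory neuron gene Avil 609, 733 and 796 CPM. What the replicate number stands for is not given in the sources used here.

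**Figure D4:**
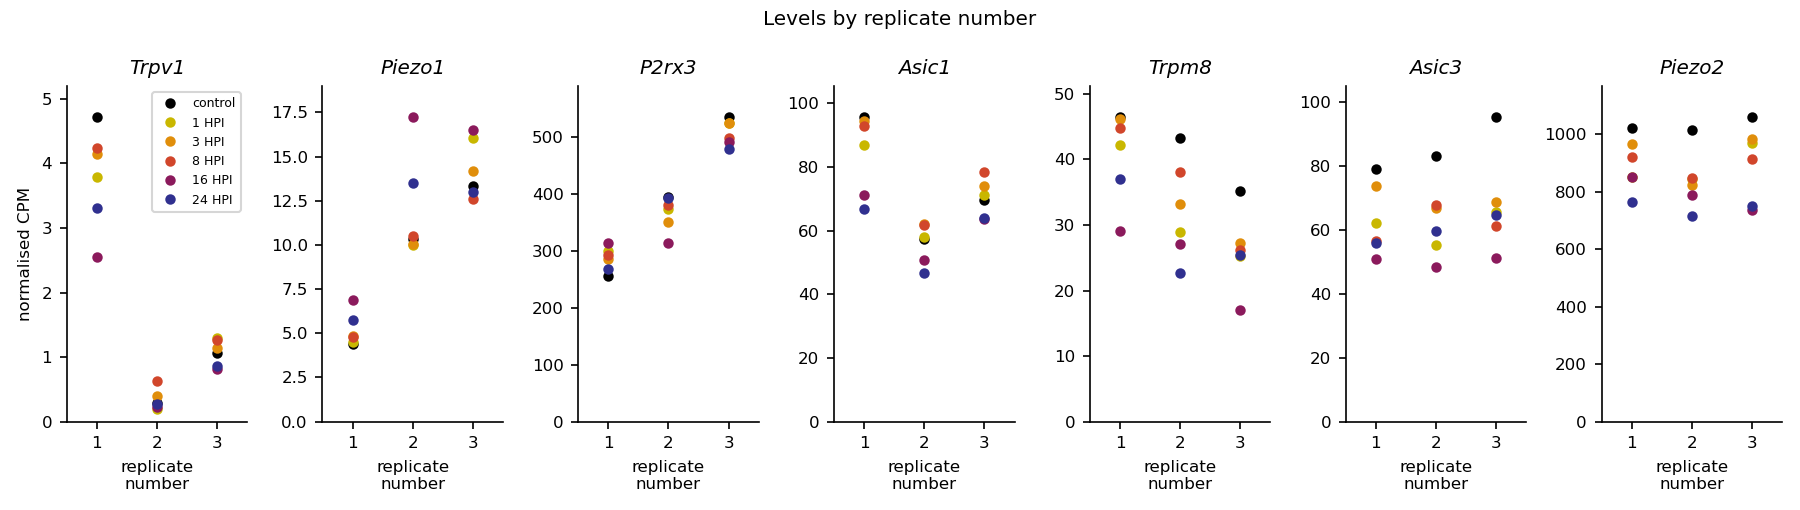
Normalised CPM (y axis, from 0) of 7 channel genes by replicate number (x axis), each point a library coloured by group. Trpv1 averages 3.79 CPM in replicate 1 against 0.338 CPM in replicate 2, P2rx3 averages 286 CPM in replicate 1 and 509 CPM in replicate 3, and Asic3 and Piezo2 are level across replicates with the control at the top of each.

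Related channel genes passed in both directions. Over all genes, 15.9% were lower and 14.9% higher at any of the 5 times against control. Of 21 other TRP genes, 8 were tested and 2 were lower at some time, among them Trpm2 at 16 HPI by -0.28 (adjusted p = 0.0186). The osmotic and warmth channel genes Trpv3 and Trpv4 had at most 19 and 2 counts in any library. Of 9 other ASIC and P2X genes, 5 were tested. Asic2, a subunit that joins Asic1 and Asic3 in channels, was lower at 16 HPI by -0.59 (adjusted p = 0.0027), and P2rx5 was higher at 16 HPI by 0.69 (adjusted p = 0.0306) and at 24 HPI by 0.87 (adjusted p = 0.0081). P2rx2, the usual partner of P2rx3, had between 2 and 9 counts per library. Of 9 other genes for mechanosensitive or thermosensitive channels, 7 were tested, of which 3 were lower and 2 higher at some time. The osmosensitive Tmem63b was lower at 8, 16 and 24 HPI, by -0.24 at 16 HPI (adjusted p = 0.000417), and the thermosensitive potassium channel gene Kcnk4 by -0.31 (adjusted p = 0.0078), as was Kcnk10 by -0.17 (adjusted p = 0.0224). Tmem120a was higher at 16 HPI by 0.32 (adjusted p = 0.0034), and Kcnk2 at 8 HPI by 0.37 (adjusted p = 0.0126). The median log2 fold change at 16 HPI was -0.08 over the 8 TRP genes, -0.03 over the 5 ASIC and P2X genes and -0.17 over the 7 mechanosensitive or thermosensitive genes, against -0.00 over all genes.

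Among 11 genes for proteins that bind or modulate these channels, 9 were tested, of which 2 were lower and 3 higher at some time. Mdfic, whose protein binds Piezo channels, was higher at 16 HPI by 0.87 (adjusted p = 0.0026), and Stom, a membrane protein that modulates ASICs, by 0.58 (adjusted p = 0.002). Tmem100, an adaptor between Trpv1 and Trpa1, was higher at 8 HPI by 0.45 (adjusted p = 0.0348). Pip5k1c, which makes the lipid PIP2, and the kinase gene Prkce were lower at 16 HPI by -0.18 and -0.17 (adjusted p = 0.0085 and 0.008). Pirt, a regulator of Trpv1 and Trpm8, had 1504 CPM in the control libraries and did not pass. The 9 genes had a median of -0.13 at 16 HPI.

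Of 10 genes for receptors that sensitise these channels, 7 were tested, of which 4 were lower and 1 higher at some time. Ptger4, a prostaglandin E2 receptor, was lower at 8, 16 and 24 HPI, with -0.87 at 16 HPI, and Il6st, the gp130 chain of cytokine receptors, was lower at 16 HPI by -0.31 (adjusted p = 0.0001) and at 24 HPI by -0.37. Ptger1 was lower at 16 HPI by -0.29 (adjusted p = 0.0264). The bradykinin receptor gene Bdkrb2 was higher at 8 HPI by 0.63 (adjusted p = 0.0066). Of 7 genes for transcription factors known to set the channel repertoire of sensory neurons, 6 were tested and 5 were higher at some time, while 0 were lower. Runx1, the factor of the pain lineage, rose by 1.35 at 16 HPI from 1.81 CPM, and Rest, a repressor of neuronal genes, by 2.06 at 16 HPI from 0.877 CPM. Tlx3 was higher at 8, 16 and 24 HPI, by 0.24 at 16 HPI (adjusted p = 0.0056), and Isl1 and Pou4f1 were higher at 24 HPI by 0.26 and 0.20 (adjusted p = 0.0075 and 0.0074). At 16 HPI the median was -0.29 over the 7 receptor genes and 0.12 over the 6 transcription factor genes.

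**Figure D5:**
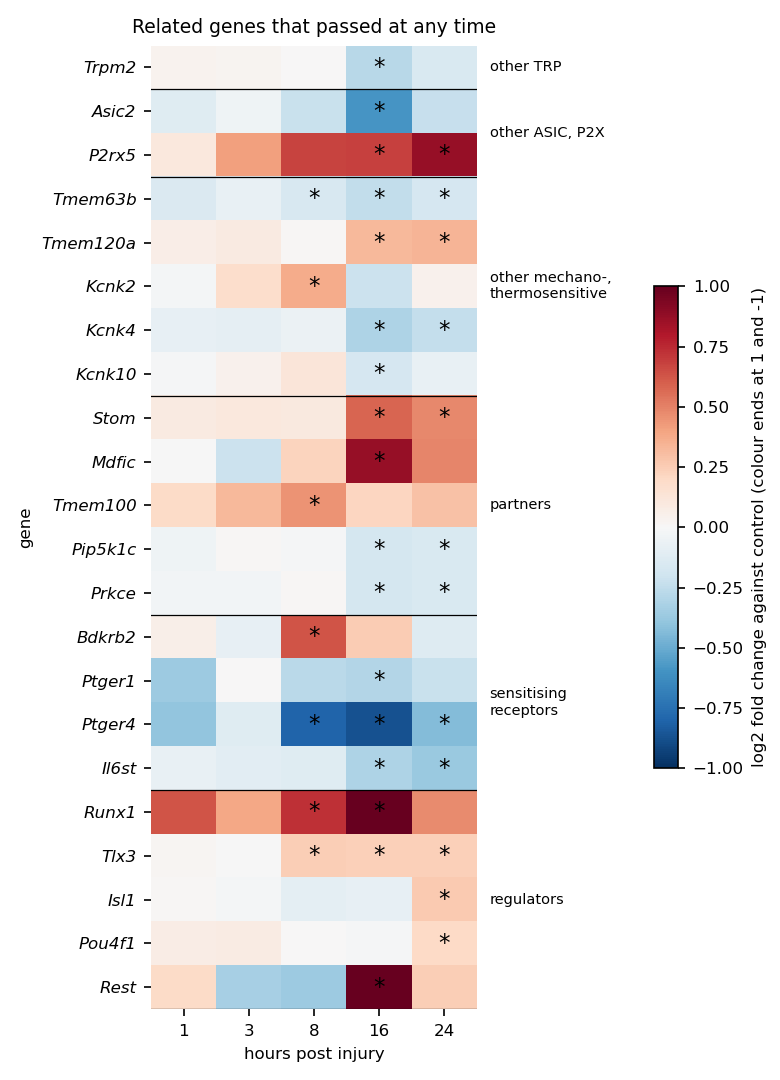
Log2 fold change against control (colour, ending at 1 and -1) of the related genes named here that passed at any time, one row per gene and one column per time after injury, with a star where edgeR's adjusted p was under 0.05. Most stars stand at 16 and 24 HPI, and at 16 HPI Asic2 (-0.59) is lower and Mdfic (0.87), Runx1 (1.35) and Rest (2.06) are higher, the last 2 beyond the colour scale.

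The genes most like each varying channel gene over the 18 libraries, by Pearson's r of log2 CPM with the replicate number removed, are given here among the 13771 genes tested. The points share libraries, normalization and group structure, so r is a description here. Trpm3 was closest to Scn8a, a sodium channel gene (r = 0.97), then to Pitpnm2 (0.97) and Efna5 (0.96). Piezo2 was closest to Astn1 (0.98), the axonal motor gene Kif1a (0.98) and Peg3 (0.97), and among the 3 genes closest to Trpm8 were Camk2b (0.94) and Atrx (0.93). Asic3 was closest to Tmem63b (0.94) and the presynaptic gene Erc1 (0.92), and Asic1 to Angpt1 (0.96), Fads2 (0.95) and the tau gene Mapt (0.94). All of these genes had negative log2 fold changes at 16 HPI, from -0.19 for Mapt to -0.88 for Angpt1. Piezo1 was closest to Rnf114 (0.94), Cldnd1 (0.90) and Osbp2 (0.90), which were at 0.36, 0.36 and 0.63 at 16 HPI.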

How the data were processed

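The authors deposited raw counts of reads per gene, 1 table per library, from reads aligned to mm10. The methods give STAR as aligner and featureCounts as counter on GENCODE vM20, whereas the labels list HTSeq, and strand settings are not given in the sources used here. Libraries held 9478891 to 23082327 counts on genes, and entries naming no gene, 25.2% to 33.2% of the counts, were left out. GENCODE vM21 matched 47224 of 47643 identifiers. Counts were fitted with edgeR 4.0.16 in R 4.3.3, with TMM factors, genes over 1 CPM in at least 3 libraries, terms for time point and replicate number, two-sided quasi-likelihood tests and Benjamini-Hochberg adjustment over all genes, and a gene passed with an adjusted p under 0.05. Libraries of the same replicate number deviated together from their group means (45 pairs, r 0.484 to 0.765), so the number was kept as a block. The 90 other pairs had r of -0.577 to -0.0423. As group means were removed, a positive r in the first pairs makes the others negative on average, so these are no separate evidence. No 2 libraries were identical. RPKM used exon length, and correlations used log2 CPM with a prior count of 2. Alternatives were DESeq2 1.42.0, other size factors, other filters, no block, the compared groups alone, residual rRNA and mitochondrial genes left out, and each library left out. The scripts were tested on simulated data. The genes, lists and tests were chosen with earlier results of these data known. Related genes are named where they passed at any time, beside those named for having few counts or as partners, which were chosen after their values were seen. Promoters came from RefSeq (GRCm38.p6). A few genes of the lists are not reported here.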

Additional observations from a re-analysis of the deposited data

Results flagged for a closer look

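The level differed between 8 and 16 HPI for 6 of the channel genes, by edgeR's test of the step itself. That test compares injured cultures of 2 times, in a fit that also held the control libraries. Trpm3 changed by -0.37 on the log2 scale, Trpm8 by -0.56 and Asic1 by -0.32, and each call held without any single library. Piezo1 changed by 0.55, and without 16 HPI replicate 2 by 0.43 with an adjusted p of 0.0522. Asic3 changed by -0.29, and without 8 HPI replicate 2 by -0.20 with an adjusted p of 0.0796. Trpv1 changed by -0.75, but its call was lost in 9 of 13 alternatives, with adjusted p-values between 0.0540 and 0.839 there, among them each of the libraries 8 HPI replicates 1, 2 and 3 and 16 HPI replicates 1 and 3 when left out.

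Between 16 and 24 HPI the level differed for Asic3 alone among the 9 genes tested, with a change of 0.26. Its call was lost without 16 HPI replicate 2 (adjusted p = 0.0716), 16 HPI replicate 3 (0.0886), 24 HPI replicate 2 (0.0742) or 24 HPI replicate 3 (0.129), with values between 0.24 and 0.25.

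The 3 libraries per group were too few for a search for single outlying samples.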

How the results depend on the processing

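Of 17 differences from control that passed, 7 kept their call under every alternative, namely Asic3 at 8, 16 and 24 HPI and Trpm3 and Piezo2 at 16 and 24 HPI, and none reversed. Over the 24 differences that passed, steps included, the call was lost in 47 of 334 alternatives. Over the 28 differences from control that did not pass, a call appeared in 9 of 388.

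The replicate block mattered most. With no replicate block the genes passing fell from 2 to 0 at 1 HPI, 3 to 1 at 8 HPI, 7 to 3 at 16 HPI, 5 to 3 at 24 HPI, 6 to 0 between 8 and 16 HPI, 1 to 0 between 16 and 24 HPI and 6 to 3 over all times. The compared groups alone gave 4 at 1 HPI and 2 between 16 and 24 HPI, and DESeq2 gave 4 at 1 HPI and 2 at 3 HPI. The cause was not tested.

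Leaving out each library of the compared groups gave 1 to 2 genes at 1 HPI, 0 to 2 at 3 HPI, 2 to 3 at 8 HPI, 5 to 7 at 16 HPI, 5 in each case at 24 HPI, 0 to 2 between 16 and 24 HPI, 4 to 6 between 8 and 16 HPI and 5 to 6 over all times. At 1 HPI, 1 gene passed without control replicate 2 or 3 or 1 HPI replicate 1 or 2, and at 3 HPI 2 passed without 3 HPI replicate 1. Between 16 and 24 HPI, 0 passed without 16 HPI replicate 2 or 24 HPI replicate 3, and 2 without 24 HPI replicate 2, Asic3 not among them. Without 16 HPI replicate 3, 1 gene passed, and it was not Asic3. The library 16 HPI replicate 1 had the most residual rRNA (2.45%, against 0.912% to 1.58% in the others), and without it 6 of the 7 genes passed at 16 HPI, all but Trpv1.

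Other size factors, other filters and leaving out residual rRNA and mitochondrial genes moved no count by over 1.5 times, although Trpv1 at 16 HPI had an adjusted p of 0.0508 with at least 10 counts as the filter and could not be fitted with over 1 CPM in all 18 libraries. Depth limits Trpa1 and Trpv1, which had at most 5 and 93 counts per library.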
